A study of Arabidopsis thaliana with 12 samples.

Results

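Plant cells carry genes in the nucleus, the chloroplast and the mitochondrion. The transcripts described here are those of the chloroplast genome, whose gene identifiers start with ATCG, and of the mitochondrial genome, whose identifiers start with ATMG. They were taken by identifier alone from the normalized counts of 20972 Arabidopsis genes, which held 88 chloroplast-encoded and 26 mitochondrial-encoded members, 114 in all. The rule that took them from this list used no measured value, but the list itself held no gene with 0 reads in any library. Organelle genes absent from the list are not covered here.

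Chloroplast genes encode core subunits of the photosystems, the cytochrome b6f complex, the ATP synthase and Rubisco, together with part of the machinery that transcribes and translates them. Mitochondrial genes encode core subunits of the respiratory chain and rRNAs. Nuclear sigma factors direct the bacterial-type RNA polymerase of the chloroplast, phage-type RNA polymerases encoded in the nucleus act in both organelles, and a poly(A) tail on a plant organelle transcript marks it for decay rather than for translation.

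The samples were wild-type seedlings of the Col ecotype, 5 days old and grown in liquid 0.5 × MS medium under constant light. They received 1 mM H2O2 and were frozen after 2, 4 or 8 min, and the 0 min controls received distilled water. Each of the 4 groups had 3 replicates, and about 100 to 150 seedlings went into each time point, which makes every library a pool of whole seedlings. No water-treated seedlings of the later times were analysed here. H2O2 and the time since liquid was added cannot be told apart in any comparison with 0 min.

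The libraries held between 13558388 and 26618274 reads on listed genes, and the libraries were made with a kit that selects polyadenylated RNA. The green tissue markers were abundant in every library, with RBCS1A, a small subunit of Rubisco, at 134848 to 218160 normalized counts and CAB1, a light-harvesting protein, at 298937 to 526855. The root peroxidase gene AT4G11290 was at 132 to 253, so both shoot and root were represented. The other root marker looked for, MRN1 (AT5G42600), was not among the listed genes. A nuclear-encoded 18S rRNA (AT3G41768), which has no regular poly(A) tail, varied from 24636 to 76763 normalized counts.

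Of the 88 chloroplast-encoded members 29, and of the 26 mitochondrial-encoded members 21, had a description in the sources used here, and the others are given by identifier only. A location in TAIR10.1 was found for 24 chloroplast-encoded members (27.3% of them) and 13 mitochondrial-encoded members (50.0%). The members below show stretches of their sequence that could bear on how reads from organelles are captured and assigned, each 5′ to 3′ on the coding strand. Whether runs of adenines affected capture was not tested.

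The first set shows the longest run of adenines in the 2 leading chloroplast mRNAs, in the 2 located chloroplast genes with the longest such run, and in the leading mitochondrial rRNA. The run is in capitals, with up to 20 bases on each side. The stretches lie at Pltd:56001-56045 (plus strand, rbcL), Pltd:736-779 (minus, psbA), Pltd:17906-17958 (minus, rpoC2), Pltd:57352-57404 (plus, accD) and MT:142049-142094 (minus, 26S rRNA).
rbcL: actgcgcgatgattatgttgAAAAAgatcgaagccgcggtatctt
psbA: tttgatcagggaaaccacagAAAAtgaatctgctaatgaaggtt
rpoC2: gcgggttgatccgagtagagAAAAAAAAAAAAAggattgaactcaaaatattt
accD: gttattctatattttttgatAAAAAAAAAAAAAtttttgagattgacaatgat
26S rRNA: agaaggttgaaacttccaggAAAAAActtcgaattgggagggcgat

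The runs of rpoC2 and accD had 13 adenines, against 5 in rbcL and 4 in psbA. These genes were picked for their level or their run, so no relation between the 2 is read from them. At 0 min rbcL averaged 8670 normalized counts per kb of annotated sequence and psbA 2743, whereas accD averaged 159 and rpoC2, a subunit of the chloroplast RNA polymerase, 110. The mitochondrial 26S rRNA, whose longest run had 6 adenines, averaged 9779 per kb.

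The second set shows why some mitochondrial members cannot be assigned with certainty, since chromosome 2 carries a copied piece of the mitochondrial genome. For nad5, a subunit of respiratory complex I, and rpl16, a ribosomal protein, 60 bases of the gene are printed over their copy, with the differing base in capitals. The nad5 stretch is at MT:234389-234448 (plus) and its copy at chromosome 2:3314710-3314769 (minus), inside AT2G00460. The rpl16 stretch is at MT:23445-23504 (plus) and its copy at chromosome 2:3313458-3313517 (minus), inside AT2G07629.
nad5: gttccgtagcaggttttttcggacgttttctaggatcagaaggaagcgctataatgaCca
copy of nad5: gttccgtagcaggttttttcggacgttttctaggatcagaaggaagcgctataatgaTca
rpl16: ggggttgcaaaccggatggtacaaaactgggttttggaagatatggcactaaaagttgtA
copy of rpl16: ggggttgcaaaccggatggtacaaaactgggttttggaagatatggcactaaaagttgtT

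Counted from 1 at the 5′ end, the copies differ from the mitochondrial stretches by C58T in nad5 and A60T in rpl16. Of the 50-base stretches of nad5, 72.4% occur identically in the nuclear chromosomes. The shares were 75.2% for nad1, 100% for nad2, 34.6% for rpl16, 18.5% for cox2 and 7.44% for rps3. The rRNAs were nearly free of such copies, with 0% for 26S rRNA and 0.371% for 18S rRNA, and nad9, nad4L, cox1 and atp4 had 0%. AT2G07629 was itself listed, at 1 to 7 reads per library. Levels of nad1, nad2, nad5, rpl16, cox2 and rps3 may therefore hold an unknown share from chromosome 2. Stretches of cox2 (172 of 685), rpl16 (170 of 491) and rps3 (117 of 1573) also recur within the mitochondrial genome. psbC and psbD, whose annotated sequences overlap, and rps3 and rpl16, which also overlap, may share reads.

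Together the chloroplast-encoded members took 0.204% to 0.434% of the reads of a library and the mitochondrial-encoded members 0.112% to 0.385%. The summed level of the chloroplast-encoded members was 45222, 77982 and 40450 normalized counts in replicates 1, 2 and 3 at 0 min. It was 54331, 53254 and 48493 after 2 min, 46230, 36655 and 57122 after 4 min, and 49127, 34841 and 50711 after 8 min. The highest library was replicate 2 of the water control, and the 2 lowest were replicate 2 after 8 min and after 4 min, so every H2O2 group overlapped the control.

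The mitochondrial-encoded members summed to 42123, 69153 and 34665 normalized counts in replicates 1, 2 and 3 at 0 min, and to 45006, 43394 and 40113 after 2 min. They summed to 33669, 19751 and 43959 after 4 min and to 39119, 23659 and 44789 after 8 min. The same libraries were highest and lowest as for the chloroplast. The mean of the control was 48647 ± 18146 (SD, n = 3), and those at 2, 4 and 8 min were 42837 ± 2493, 32460 ± 12150 and 35856 ± 10937. The range of each H2O2 group overlapped that of the control.

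**Figure D1:**
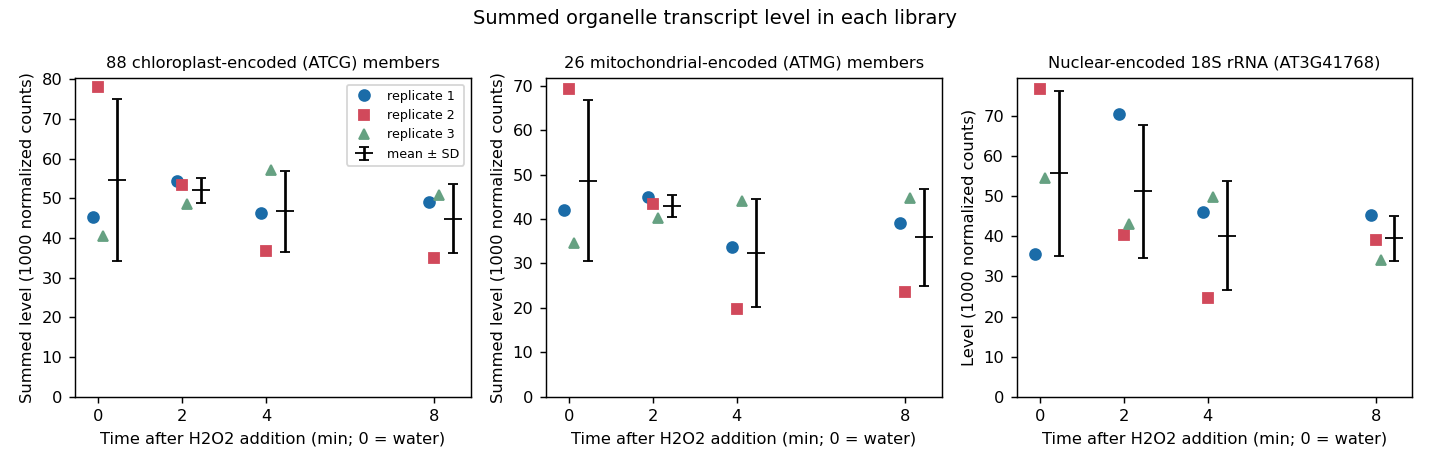
Summed normalized counts of the 88 chloroplast-encoded and 26 mitochondrial-encoded members, and the level of the nuclear-encoded 18S rRNA, in each library (vertical axes, in units of 1000 normalized counts) against time (horizontal axis, min; 0 is the water control). Points are replicates and the black bar is the mean ± SD of 3; replicate 2 at 0 min stands highest in each panel, at 77982, 69153 and 76763.

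The highest of the 3 chloroplast sums was 1.93 times the lowest in the control and 1.12, 1.56 and 1.46 times at 2, 4 and 8 min. For the mitochondrial sums the ratio was 1.99 in the control and 1.12, 2.23 and 1.89 at 2, 4 and 8 min. Without replicate 2 the ratios in the control were 1.12 and 1.22, and whether the spread differed between time points was not tested. Seedlings of a time point were pooled, and fewer cells of a type and less RNA per cell cannot be told apart in such samples.

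The summed levels of the 2 sets moved together from library to library. The mitochondrial 26S and 18S rRNAs made up 91.2% to 92.8% of the mitochondrial sum, so its correlations are mostly those of these rRNAs. Across the 12 libraries the log2 sums of the 2 sets had a Pearson's r of 0.926 (permutation p = 1.6e-04, adjusted p = 4.8e-04 over 3 such relations, two-sided) and a Spearman's rho of 0.895 (permutation p = 1.8e-04, adjusted p = 5.4e-04). Without the 2 libraries farthest from the median, replicate 2 at 0 min and after 8 min, r was 0.853. Between deviations from the time-point means r was 0.955, and within replicates 1, 2 and 3, with 4 libraries each, it was 0.579, 0.979 and 0.916.

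The nuclear-encoded 18S rRNA followed these sums less closely. Its r with the chloroplast sum was 0.673 (permutation p = 0.018, adjusted p = 0.018) and with the mitochondrial sum 0.693 (permutation p = 0.014, adjusted p = 0.018). Spearman's rho was 0.559 (permutation p = 0.063, adjusted p = 0.095) and 0.448 (permutation p = 0.15, adjusted p = 0.15). Without the 2 libraries farthest from the median of the organelle sum r was 0.531 and 0.480. The libraries left out were replicate 2 at 0 and 8 min for the chloroplast and replicate 2 at 4 and 8 min for the mitochondrion. Without only replicate 2 at 0 min r was 0.484 and 0.549. Between deviations from the time-point means r was 0.62 and 0.596. Within replicates 1, 2 and 3 it was 0.941, 0.865 and -0.346 for the chloroplast and 0.362, 0.911 and -0.681 for the mitochondrion, so the sign was not the same in each replicate number. Whether the capture of RNA without regular poly(A) tails had a part in the organelle levels was not tested.

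Of the 114 members, 101 had a mean of at least 10 normalized counts over the 12 libraries and were tested, 84 of the chloroplast and 17 of the mitochondrion. The filter used the mean over all libraries and not the level in any group. The 4 chloroplast-encoded members below it (ATCG00200, ATCG00460, ATCG00930 and ATCG00950) had 1 to 10 reads in a library. The 9 mitochondrial-encoded members below it had 1 to 17 reads and included the 5S rRNA, nad2 and a cytochrome c biogenesis gene, ATMG00110. These 13 members were not tested. Among them ATMG01220, named after its values were seen, was at 0.908 to 1.12 normalized counts at 0 min and 1.74 to 5.14 in the 9 H2O2 libraries, from 1 to 4 reads in a library.

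No member changed past the threshold after H2O2. Limma with Benjamini-Hochberg adjustment over 19485 genes called 0 of the 84 chloroplast-encoded and 0 of the 17 mitochondrial-encoded members at 2, 4 and 8 min, at an adjusted p under 0.05. The background over all tested genes was 0% after 2 min, 0.811% after 4 min and 1.34% after 8 min. On the recovered reads edgeR, with backgrounds of 0%, 0.708% and 1.4%, and DESeq2, with backgrounds of 0.635%, 2.69% and 2.32%, also called 0 members at each time. At an unadjusted p under 0.05, limma counted 1, 1 and 4 chloroplast-encoded members at 2, 4 and 8 min, where the background was 12%, 15.6% and 13.7%. For the mitochondrion those counts were 0, 1 and 0.

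A change of moderate size could have gone unseen in these members. The median 95% interval of a chloroplast-encoded member's log2 change reached 0.65 to either side, and that of a mitochondrial-encoded member 0.75, against 0.26 over all tested genes. The F test over the 4 groups also called 0 members of either set, with a background of 1.03% and a lowest adjusted p of 0.577 for the chloroplast and 0.565 for the mitochondrion. At an unadjusted p under 0.05 that test counted 0 in both sets, with a background of 10.8%.

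The chloroplast-encoded members did not share a direction over time. Their median log2 change from the control at 2, 4 and 8 min was 0.05, -0.08 and -0.10, beside 0.00, -0.01 and 0.00 over all tested genes. Of the 84 members 51, 24 and 35 had a log2 change above 0, where the background was 49.9%, 47.8% and 49%. The members' own changes at 8 min ran from -0.52 to 1.08.

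The mitochondrial-encoded members lay below the control nearly throughout. Over the 3 times their median log2 change was -0.13, -0.39 and -0.37, and 16, 16 and 17 of 17 were below 0. The 3 comparisons share the same control libraries, and leaving out 1 of these turned the sign of the median at 2 min and brought it closer to 0 at 4 and 8 min. Without replicate 2 at 0 min the mitochondrial medians were 0.18, -0.12 and -0.12 and 3, 12 and 11 of 17 members were below 0. The chloroplast medians without it were 0.34, 0.21 and 0.19, and 82, 72 and 71 of 84 members were above 0, where the background was 49.1%, 47.7% and 48.7%. At 8 min that omission raised the log2 change of all 84 and all 17 members, and took 36 of the 84 and 6 of the 17 from below to above 0.

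**Figure D2:**
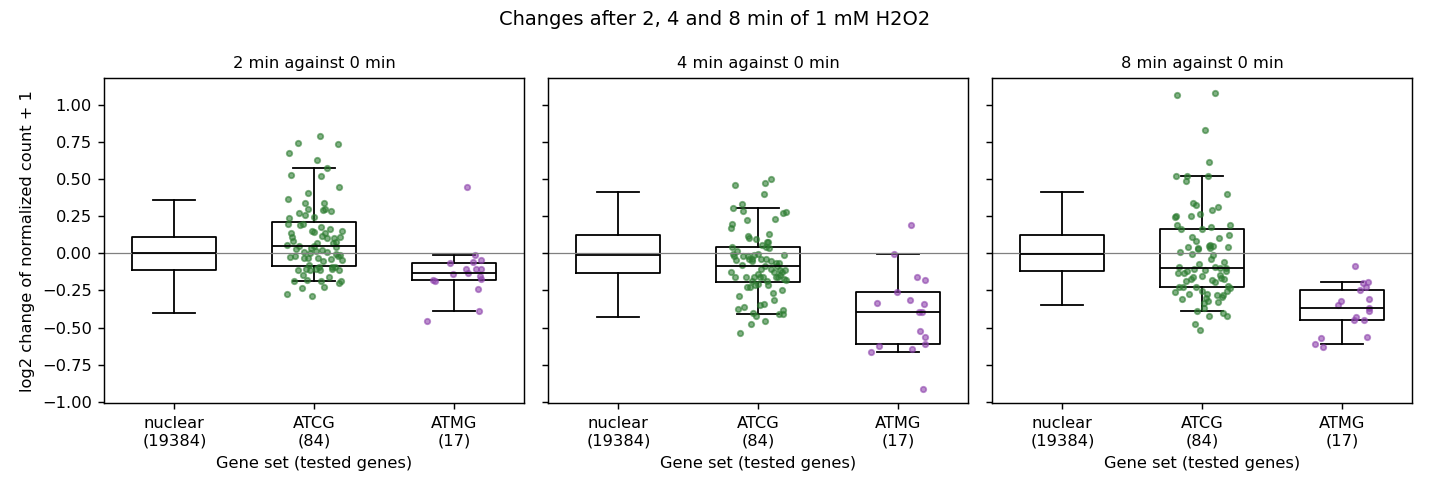
Log2 change of tested genes at 2, 4 and 8 min against 0 min (vertical axis) for nuclear genes and both organelle sets (horizontal axis, number of genes in brackets). Boxes give the median and quartiles, whiskers the 5% and 95% points, and dots the organelle members; the ATMG medians are -0.13, -0.39 and -0.37 and no member passed the adjusted threshold.

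The water control replicate 2 stood apart for nearly every member. All 84 chloroplast-encoded members and all 17 mitochondrial-encoded members were above their own mean there, by a median of 0.66 and 0.84 on the log2 scale. It was the highest of the 12 libraries for 62 of the 84 and for 17 of the 17. In replicate 3 of the same group only 3 of the 84 and 1 of the 17 were above their own mean, with medians of -0.46 and -0.23. In replicate 2 at 0 min the nuclear-encoded 18S rRNA and CAB1, at 76763 and 526855 normalized counts, were also the highest of the 12 libraries. So was the root peroxidase gene AT4G11290, at 253. The green tissue marker RBCS1A, at 181247, was not, and reached 218160 in replicate 1 at 4 min.

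Replicate 2 was low at the later times. Only 16 of 84 chloroplast-encoded and 0 of 17 mitochondrial-encoded members were above their own mean in replicate 2 at 4 min, where the nuclear-encoded 18S rRNA was at its lowest, 24636 normalized counts. At 8 min these numbers were 11 and 1. Replicate 3 was high at 4 min, with 80 of 84 and 17 of 17 members above their own mean.

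**Figure D3:**
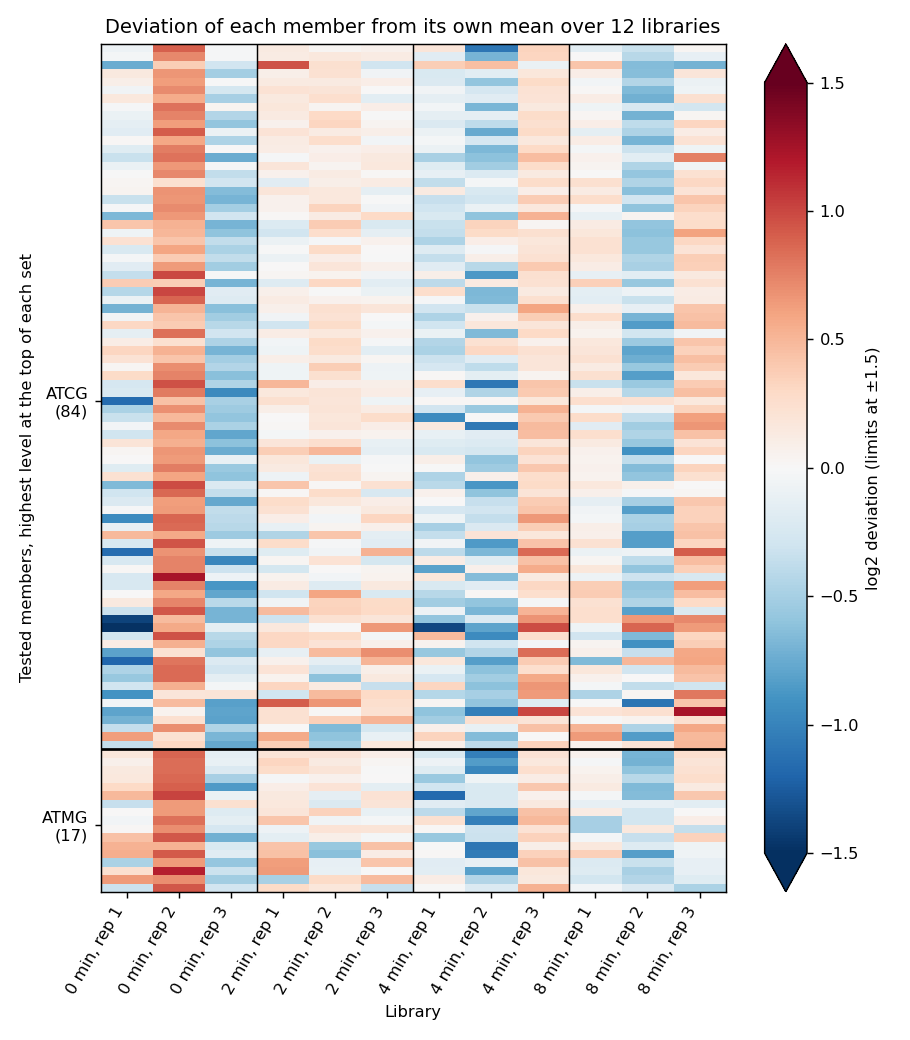
Log2 deviation of each tested member (rows, 84 ATCG above and 17 ATMG below the line, highest level first in each set) from its own mean over the 12 libraries (columns). Red is above and blue below the mean; the column of replicate 2 at 0 min is red for all 101 members.

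Replicates of organelle transcripts differed more than those of nuclear ones. The median SD between replicates, on the log2 scale and within a time point, was 0.46 for the chloroplast-encoded members (from 0.30 for psaA to 0.85 for ATCG00690). It was 0.15 for the 7736 nuclear genes with a mean level between the quartiles of these members, 76.8 and 452 normalized counts. Next to psaA the smallest SDs were those of ATCG00190 (0.31) and rps14 (0.32), and next to ATCG00690 the largest were those of ATCG00080 (0.71) and ATCG01070 (0.70). All 84 members exceeded that nuclear median, and 77 exceeded the 95% point of those nuclear genes, 0.35. Members outside these quartiles were set against the same nuclear genes, so they were not matched by level. Scarcer nuclear genes spread more, with a 95% point of 0.56 for means between 15.5 and 131 normalized counts.

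For the mitochondrial-encoded members the median SD was 0.47, from 0.29 for cox1, a subunit of cytochrome c oxidase, to 0.61 for ATMG00660, a hypothetical protein. Between them stood cox2 (0.34) and nad5 (0.41) at the low end and nad9 (0.54) and atp4 (0.52) at the high end. Most of the set had low counts. The 5395 nuclear genes with means between 15.5 and 131 normalized counts, their quartiles, had a median SD of 0.26 and a 95% point of 0.56, which only 1 of the 17 members exceeded. The contrast was clearer at the top of the range. The mitochondrial 26S and 18S rRNAs and rbcL had SDs of 0.48, 0.44 and 0.48, whereas the 458 nuclear genes with a mean of at least 5000 had a median of 0.12 and a 95% point of 0.26. The nuclear-encoded 18S rRNA, at 0.46, had a spread of the same size as theirs.

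**Figure D4:**
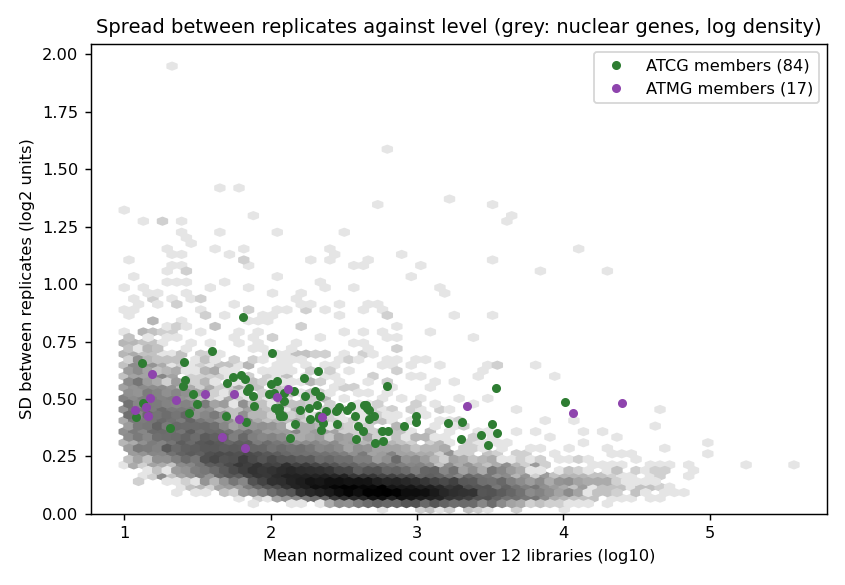
SD between replicates within a time point (vertical axis, log2 units) against the mean normalized count (horizontal axis, log10) for nuclear genes (grey, darker where more genes lie) and the tested members (green ATCG, purple ATMG). The ATCG members have a median SD of 0.46, and nuclear genes with means between the quartiles of these members have 0.15.

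Much of this spread was shared within a genome. The level of a chloroplast-encoded member correlated over the 12 libraries with the median of its set by a median r of 0.81, from 0.20 for psbA to 0.99, and 78 of 84 members were above 0.5. For the mitochondrion the median r was 0.70, from 0.47 to 0.93, and 16 of 17 were above 0.5. When each member was expressed relative to the mean of its own genome in the same library, the median SD was 0.25 for the chloroplast and 0.28 for the mitochondrion. These points share libraries and depth, and each member is part of its set's median.

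Relative to the own genome, limma called 0 members at 2, 4 and 8 min, where the background was 0%, 0.831% and 1.37%. At an unadjusted p under 0.05 it counted 4, 9 and 18 of 84 chloroplast-encoded members, with backgrounds of 12.1%, 15.7% and 13.8%, and 1, 1 and 0 of 17 mitochondrial-encoded ones. The lowest adjusted p was that of psbC at 8 min, 0.0728, with a log2 change of -0.36 ± 0.09 (SE) relative to the chloroplast mean. The protein is the inner antenna CP43 of photosystem II.

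Rubisco's large subunit rbcL, the carbon-fixing enzyme's catalytic chain, was the most abundant chloroplast mRNA, with 12.7% to 24.1% of the chloroplast sum. Its level was 9344, 18366 and 9744 normalized counts in replicates 1, 2 and 3 at 0 min and 10872, 10092 and 10297 after 2 min. It was 11148, 4650 and 12456 after 4 min and 8839, 7833 and 10084 after 8 min. The 3 values after 8 min lay below the 3 after 2 min. The highest of them, 10084, overlapped those at 0 min. The log2 change at 8 min against 0 min was -0.42 (95% interval -1.09 to 0.25, limma adjusted p = 0.588), and without replicate 2 of the control it was -0.11.

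Photosystem II was represented by 7 described members. None was called at any time, with a median log2 change of -0.05, -0.19 and -0.28 at 2, 4 and 8 min, and 3, 1 and 0 of 7 were above 0. psbA encodes the D1 protein of the reaction centre, which turns over rapidly in the light, and its transcript departed most from the rest. It was at 1926, 4163 and 2649 normalized counts at 0 min, 6285, 3825 and 2635 after 2 min, 4174, 4420 and 3012 after 4 min, and 4308, 2057 and 1971 after 8 min.

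These psbA values overlapped between all groups. The largest was in replicate 1 after 2 min, where 59 of the 84 chloroplast-encoded members were above their own mean, by a median of 0.08 over the set on the log2 scale. psbA ran from 19.5% to 95% of rbcL. Its log2 change was 0.53 (95% interval -0.23 to 1.28, limma adjusted p = 0.585) after 2 min and -0.09 (-0.85 to 0.66, adjusted p = 0.939) after 8 min. Of the 50-base stretches of psbA 7.70% occur identically in the nuclear chromosomes, and of those of rbcL 10.1%.

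psbB, which encodes the inner antenna protein CP47, had values of 1928, 3433 and 2007 normalized counts at 0 min and 1860, 1648 and 1608 after 8 min. All 3 values after 8 min were below all 3 at 0 min and all 3 after 2 min, which were 2191, 1995 and 2077. Its log2 change at 8 min was -0.48 (95% interval -0.93 to -0.02), with a limma adjusted p of 0.342, and it was -0.21 without replicate 2 of the control. The level at 4 min, 1894, 1211 and 2161, overlapped both earlier groups.

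The 3 described photosystem I members had median log2 changes of -0.09, -0.41 and -0.40 at 2, 4 and 8 min, with none called. psaA, a reaction centre protein, was at 3177, 4648 and 2979 normalized counts at 0 min and at 2923, 2216 and 2832 after 8 min, and had the smallest spread of the chloroplast set. Its groups at 0 and 8 min did not overlap, and the log2 change was -0.42 (95% interval -0.84 to 0.00, limma adjusted p = 0.368), or -0.22 without replicate 2 of the control. psaB, the partner of psaA in the reaction centre, kept a nearly fixed ratio to it, 1.06 to 1.22 over the 12 libraries, and the genes are neighbours on the minus strand. psaC had a log2 change of -0.23 at 8 min.

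At 8 min 1 chloroplast-encoded member had all 3 values above and 2 had all 3 below the 3 values at 0 min, where the background was 8.56% and 8.23%. Against 2 min, a comparison that leaves out the control, 1 was above and 9 were below, where the background was 6.26% and 5.29%. The 9 were psaA, psaB, psaC, psbB, rbcL, petD, rps14, ATCG00570 and ATCG00620. Limma called 0 of either set in that comparison, with a background of 0.636%, and 0 had an unadjusted p under 0.05, with a background of 5.74%. edgeR and DESeq2 called 0 members as well, with backgrounds of 0.662% and 0.878%.

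psbC and psbD, the genes of the CP43 antenna and the D2 reaction centre protein, whose annotated sequences overlap, were also followed as a pair. psbC was at 2574, 4382 and 2224 normalized counts in the control and 2704, 1691 and 2565 after 8 min. Its 8 min values overlapped the control, with a log2 change of -0.37 (95% interval -0.84 to 0.11, limma adjusted p = 0.497), or -0.07 without replicate 2 of the control. psbD had -0.28 (adjusted p = 0.672), or 0.05 without it. The ratio of psbD to psbC stayed between 0.530 and 0.645 in the 12 libraries. psbL, psbH and the cytochrome b559 gene ATCG00580, small subunits of the photosystem, had log2 changes of -0.04, -0.32 and -0.25 at 8 min.

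The cytochrome b6f members petA, petB and petD, which link the photosystems, had a median log2 change of -0.08, -0.35 and -0.33 at 2, 4 and 8 min. The ATP synthase members atpA and atpH had -0.03, -0.17 and -0.23. The ribosomal protein members rps14 and rpl20 had log2 changes of -0.33 and -0.26 after 8 min. None of these described b6f, ATP synthase and ribosomal members was above 0 after 8 min and none was called. The 55 tested chloroplast-encoded members without a description were placed in no function group, so some of them could belong to these complexes or to the photosystems. The group values cover the described members only. rpoC1 and rpoC2, subunits of the chloroplast RNA polymerase, had changes of 0.03 and -0.10 after 8 min.

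Described members with other roles lay on both sides of 0. cemA, an envelope membrane protein, was at 168, 391 and 177 normalized counts at 0 min, 291, 325 and 313 after 2 min, and 290, 252 and 367 after 8 min, a log2 change of 0.40 (limma adjusted p = 0.586). Those of clpP, a protease subunit, and accD, a subunit of the acetyl-CoA carboxylase, were -0.16 and -0.12, and that of the NAD(P)H dehydrogenase subunit gene ATCG01050 was 0.16.

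The tRNA members ATCG00400 (tRNA-Leu) and ATCG00610 (tRNA-Trp) were among the more variable, with SDs of 0.59 and 0.60 and log2 changes of -0.07 and -0.30 at 8 min. Of the 50-base stretches of tRNA-Trp 96% occur identically in the nuclear chromosomes. The member closest to the median of the chloroplast set over the 12 libraries was ATCG00520, a photosystem I assembly factor gene, with r = 0.99. It was at 327, 573 and 256 normalized counts in the control and 398, 262 and 471 after 8 min, a log2 change of 0.01 (limma adjusted p = 0.993).

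The more abundant a chloroplast-encoded member was, the lower its log2 change tended to be. Spearman's rho between a member's mean level and its log2 change over the 84 members was -0.25, -0.29 and -0.41 for 2, 4 and 8 min. Without replicate 2 of the control it was -0.43 for 8 min. Over the 17 mitochondrial-encoded members rho was 0.12, -0.31 and 0.11, so its sign changed between times. The 29 described members had a median level of 453 normalized counts, and 5 of them were above 0 at 8 min, and the 55 others had a median of 115, and 30 were above 0. All members share the same libraries, and the change of a scarce member is based on fewer reads.

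The lowest log2 changes at 8 min in the chloroplast set were -0.52 for ATCG00570, -0.48 for psbB and -0.42 for psaA. The highest came from scarce members without a description. ATCG01020 was at 21.5, 80.8 and 35.4 normalized counts at 0 min, 46.7, 68.1 and 66.1 after 2 min, 38.2, 50.4 and 93.3 after 4 min, and 69.1, 91.8 and 96.1 after 8 min. The 3 values after 8 min lay above the 3 after 2 min but overlapped those of the control. Its log2 change at 8 min was 1.08 (95% interval 0.21 to 1.94), with a limma adjusted p of 0.252, the lowest of the chloroplast set at that time. Without replicate 2 at 0 min the change was 1.58, with an adjusted p of 0.0474.

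ATCG00510 was the only tested chloroplast-encoded member whose 3 values after 8 min, 26.3, 27.0 and 54.9 normalized counts, were all above those at 0 min, which were 12.7, 23.6 and 12.7. Its log2 change was 1.07 (95% interval 0.09 to 2.05, limma adjusted p = 0.320). At 4 min its replicates were 14.6, 10.7 and 46.7, which reach from below to above the control. ATCG00690 had a log2 difference of 0.83 after 8 min (limma adjusted p = 0.536) and the largest spread of the set, with 19.6, 84.2 and 50.9 normalized counts at 0 min.

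At 2 min ATCG01120, ATCG00110 and ATCG00010 stood highest, with log2 changes of 0.79, 0.74 and 0.74 and limma adjusted p-values of 0.338, 0.466 and 0.484. ATCG01120 was at 11.8, 23.6 and 10.9 normalized counts at 0 min and 23.3, 25.7 and 28.7 after 2 min, so the lowest value of the later group, 23.3, was just under the highest of the control. The lowest changes at 2 min, -0.28 for ATCG00570, -0.27 for ATCG00050 and -0.23 for ATCG00820, were small beside the intervals of these members.

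ATCG00630, named after its values were seen, was the other member called without replicate 2 at 0 min. It was at 80.3, 245 and 129 normalized counts at 0 min and between 172 and 215 in all 9 H2O2 libraries. Over the 12 libraries its log2 change was 0.52, 0.47 and 0.61 at 2, 4 and 8 min (limma adjusted p = 0.471, 0.427 and 0.340). Without that control library it was 0.94, 0.89 and 1.03 (adjusted p = 0.133, 0.0442 and 0.00982), which made 0, 1 and 2 chloroplast-encoded members called, with backgrounds of 0.0411%, 0.544% and 1.19%.

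**Figure D5:**
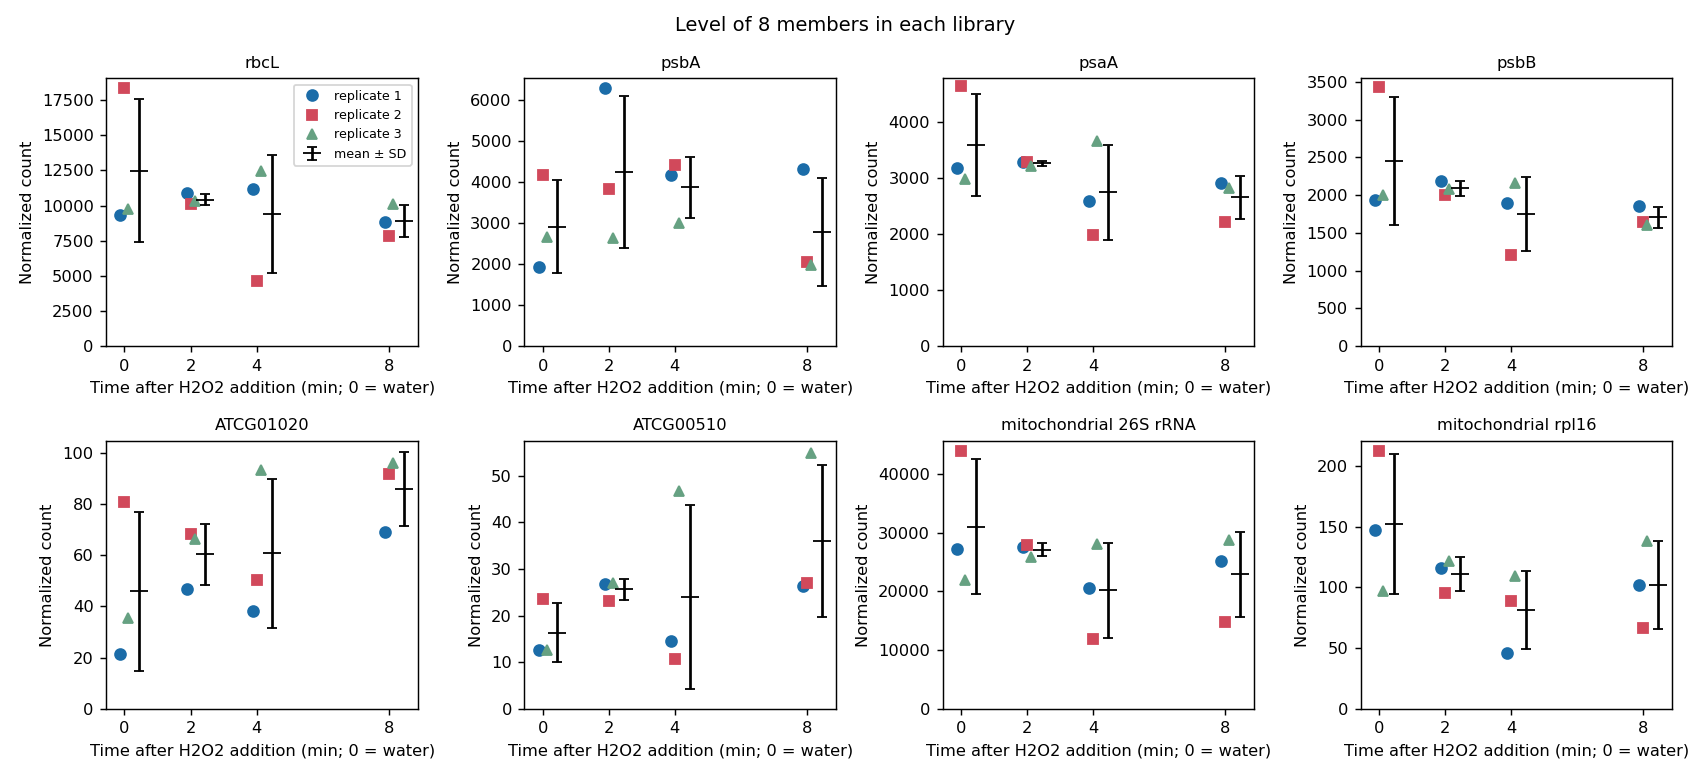
Normalized counts (vertical axes) of 8 members in each library against time (horizontal axes, min; 0 is the water control), with the mean ± SD of 3 replicates in black. psaA and psbB at 8 min lie below their 0 min values and ATCG00510 lies above them; the other 5 overlap.

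In the mitochondrion the rRNAs made up nearly all of the signal. The 26S and 18S rRNAs, the RNAs of the large and small subunits of the mitochondrial ribosome, took 91.2% to 92.8% of the mitochondrial sum. 26S rRNA was at 27139, 43949 and 21882 normalized counts at 0 min, 27612, 27853 and 25798 after 2 min, 20608, 11795 and 28034 after 4 min, and 25111, 14832 and 28695 after 8 min. All groups overlapped, and the log2 change at 4 min was -0.65 (95% interval -1.32 to 0.03, limma adjusted p = 0.342). 18S rRNA had log2 changes of -0.10, -0.52 and -0.45 at 2, 4 and 8 min, with limma adjusted p-values of 0.925, 0.400 and 0.518.

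The ratio of 26S to 18S rRNA stayed between 1.90 and 2.32 in the 12 libraries, while each of them varied over a wider range. ATMG00030, described as a hypothetical protein, was the third most abundant member and followed 26S rRNA at 8.09% to 9.30% of its level. The 5S rRNA had 3 to 10 reads in a library and was not tested.

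The mRNAs of the mitochondrion were scarce. Per kb, rpl16 averaged 282 normalized counts at 0 min, nad9 265, rps3 157 and atp4, a subunit of the ATP synthase, 113, against 7225 for 18S rRNA. rpl16 was at 147, 212 and 97.2 normalized counts at 0 min, 116, 95.1 and 122 after 2 min, 46.0, 88.9 and 109 after 4 min, and 102, 66.1 and 138 after 8 min. Its change at 4 min, -0.91 (95% interval -1.64 to -0.19), had the lowest limma adjusted p of the set, 0.216, and the groups overlapped.

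The 4 tested complex I members (nad1, nad4L, nad5 and nad9) had a median log2 change of -0.12, -0.50 and -0.28 at 2, 4 and 8 min, and the complex IV members cox1 and cox2 had -0.09, -0.22 and -0.35. cox1 was at 51.9, 103 and 78.1 normalized counts at 0 min and 60.3, 60.4 and 58.8 after 8 min, a range that lies inside that of the control. The lowest changes at 8 min were -0.63 for nad1, -0.61 for ATMG00660 and -0.57 for ATMG01130 (limma adjusted p = 0.502, 0.576 and 0.522). The highest were -0.08 for ATMG00513 and -0.20 each for rps3 and nad5. At 2 min the lowest were -0.46 for ATMG00660, -0.39 for rpl16 and -0.24 for ATMG00510, and nad5 and cox2 were at -0.01 and -0.04. ATMG00513 stood highest at 2 min, by 0.45 on the log2 scale (limma adjusted p = 0.654), and was at 9.08 to 22.5 normalized counts.

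Nuclear genes for organelle transcription and RNA decay were examined beside the members. None of the 21 genes for sigma factors, phage-type polymerases and polymerase-associated proteins passed the threshold at 2, 4 or 8 min, and the lowest limma adjusted p was 0.0686, for SIGF at 4 min (log2 change 0.38). Their median log2 change was 0.17, 0.14 and 0.15. Above 0 were 20, 19 and 20 of 21, where the background was 49.9%, 47.8% and 49%. At an unadjusted p under 0.05 the counts were 7, 7 and 6 of 21, beside the backgrounds of 12%, 15.6% and 13.7%. edgeR called 0 of the 21 at each time, with backgrounds of 0%, 0.708% and 1.4%. DESeq2 called 0, 2 and 0, with backgrounds of 0.635%, 2.69% and 2.32%, and the 2 were SIGC and SIGF. By limma SIGC had log2 changes of 0.31, 0.31 and 0.29.

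Of the 5 genes for organelle RNA decay 0 passed the threshold. At each time 4 of 5 were above 0, where the background was 49.9%, 47.8% and 49%. RIF10, the chloroplast polynucleotide phosphorylase, which degrades and polyadenylates RNA, had log2 changes of 0.19, 0.21 and 0.18 (limma adjusted p = 0.372, 0.230 and 0.357). AT5G14580 had changes of -0.18, -0.46 and -0.41 (adjusted p = 0.741, 0.230 and 0.326). By limma 3, 4 and 3 of 5 had an unadjusted p under 0.05, beside the backgrounds of 12%, 15.6% and 13.7%. The counts at 4 and 8 min include the fall of AT5G14580. edgeR and DESeq2 called 0 of the 5 at each time.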

How the data were processed

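Per the labels and the paper's methods, the authors aligned single-end reads of TruSeq Stranded mRNA libraries to TAIR10 with STAR 2.4.0.1, with up to 9 locations per read. The counting program and its use of strand are not given in the sources used here. The deposited values are a signal: the authors' read counts divided by 1 size factor per library. Dividing by the smallest value of a library gave whole reads for 100% of values (within 1e-06). 0 columns were left unused, and no listed gene had 0 reads in any library.

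Values were tested as log2(normalized count + 1) by limma 3.58.1 (variance trend) in a joint model of 12 libraries, for 19485 genes averaging at least 10. Changes on that scale understate those of low members. Alternatives were edgeR 4.0.16 and DESeq2 1.42.0 on the recovered reads, pseudocounts of 0.1 and 5, other filters (none, or 50), quantile or nuclear-total scaling, a replicate block, separate fits, levels relative to the own genome, an adjusted p under 0.01, shares of reads, sums without the 3 most abundant members, and leaving out each library; those for SDs, function groups and some of those for sums were chosen after seeing the data. The tests were tried on simulated counts, drawn for each gene apart and so without a deviation shared by the members within a library. That trial does not show what could be detected in these members. Correlations used 100000 resamples.

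The members and lists were chosen with earlier results of these data known. Named in each set were the 5 highest per kb at 0 min (by normalized count without a length), the 3 highest and lowest changes at 2 and 8 min, the 3 largest and smallest SDs, those past the threshold, rbcL, psbA and the rRNAs; others are examples of a function group. Sequences are from RefSeq, TAIR10.1, whose mitochondrial sequence differs from TAIR10's. Calculations used R 4.3.3 and Python 3.11.15 (scipy 1.17.1), plots matplotlib 3.10.9. The result of 1 function group is not reported here.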

Additional observations from a re-analysis of the deposited data

How the results depend on the processing

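The counts of called members stayed at 0 under every alternative run except the omission of replicate 2 at 0 min. Over the omissions of each library the chloroplast counts ranged from 0 to 1 at 4 min, 0 to 2 at 8 min and 0 to 1 in the F test, and the mitochondrial counts from 0 to 0. The log2 ratio of the summed chloroplast level to 0 min ranged from -0.24 to 0.28 at 2 min, -0.40 to 0.12 at 4 min and -0.46 to 0.07 at 8 min, with the highest value always without that library. Median log2 changes ranged from -0.19 to 0.34, -0.37 to 0.21 and -0.35 to 0.19 for the chloroplast and from -0.35 to 0.18, -0.71 to -0.12 and -0.63 to -0.12 for the mitochondrion. At 2 min the chloroplast median was -0.02 with DESeq2. Relative to the own genome the median SD was 0.25 for the chloroplast and 0.28 for the mitochondrion, as the shared part is then removed. With the replicate block the median SDs were 0.50 and 0.53 and 0 members were called. Over all tested genes, same-numbered libraries deviated from their group means with a mean r of 0.00971 between them (-0.328 to 0.255, 18 pairs). For different numbers the mean r was -0.00518 (-0.345 to 0.465, 36 pairs). These values do not cover the organelle members apart. Their replicate 2 had median deviations of -0.35 and -0.47 for the chloroplast and -0.44 and -0.42 for the mitochondrion at 4 and 8 min. The block changed no call. The sums over members without copied sequence were not run, since under 80% of members have a location and the check is void. With 1 to 10 reads a library, or 3 replicates as far apart as these, depth and spread limit what could be detected.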
